A study of Mus musculus with 15 samples.

Results

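Il21, Il24, Il22 and Il10 encode secreted cytokines whose receptors signal through the transcription factor STAT3, and they were followed across 15 mouse CD4 T cell RNA-seq libraries. They were chosen by symbol, as the 4 of 55421 Ensembl gene IDs in the deposited table that carry these names. IL-21 is a helper T cell cytokine that acts on B cells and on T cells themselves through IL-21R and the common gamma chain. IL-22 acts mainly on epithelial cells through IL-22RA1 and IL-10RB, IL-24 acts through receptors that contain IL-20RB, and IL-10 restrains immune responses through IL-10RA and IL-10RB. In TH17 cells, a helper lineage known for IL-17, IL-6, IL-21 and IL-23 activate STAT3, and STAT3 in turn is known to bind and induce Il21 among other genes, so the cytokine is both a product and a trigger of the pathway.

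Naive CD4 T cells, sorted as CD25-negative, CD62L-high and CD44-low from spleen and lymph nodes, were cultured on plates coated with anti-CD3 at 2 μg/ml and anti-CD28 at 1 μg/ml and harvested on day 5. Each of 5 groups had 3 libraries. Wild-type cells in Treg conditions (TGFβ at 0.5 ng/ml unless another dose was stated, and IL-2 at 200 U/ml) received Srci1 or DMSO. Wild-type cells in TH17 conditions (TGFβ at 2.5 ng/ml, and IL-6, IL-1β and IL-23 at 10 ng/ml each) also received Srci1 or DMSO, and cells from STAT3-fl/fl CD4-cre mice, in which Cre is driven by CD4 and deletes Stat3 in the T cell lineage, were grown in TH17 conditions with DMSO. IFNγ and IL-4 were blocked with antibodies in all cultures. Srci1, a compound identified only by this name, at a concentration that was not stated in the labels, was added 24 h after plating. Treg and TH17 groups differed in their cytokines and in TGFβ dose as well as in lineage, and these cannot be told apart. The design sets the compound beside loss of STAT3, in a series on STAT3 in TH17 cells.

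Values are in TPM, each transcript's length-corrected share of all transcripts scaled to a fixed total, so levels of different genes can be set side by side. The depth behind them is unknown, because TPM sums to the same total in every library. Tests are limma's, on log2(TPM + 1), with p-values adjusted by Benjamini-Hochberg over the 12800 genes that had at least 1 TPM in at least 3 libraries. A gene was called at an adjusted p under 0.05, and log2 changes of TPM + 1 understate the change of low genes. Nothing in the labels says whether replicates were separate animals or cultures, so these p-values measure only the spread between libraries, which may be technical. Each of the 4 cytokine genes passed the filter through the TH17 libraries where it was high, and Il24 also through the DMSO Treg libraries. For Il21, Il22 and Il10 a difference between those TH17 libraries and others was thus built into the selection. No count over the 4 genes is offered as support. In bulk RNA, fewer producing cells and less RNA per cell cannot be told apart.

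Stat3 itself stood at 34.2 ± 3.9 TPM in the knockout libraries and 120.8 ± 18.3 TPM in wild-type DMSO TH17 libraries (SD, n = 3 each; limma adjusted p = 3.75e-09). The CD4 T cell markers summed to between 1840 and 2820 TPM in every library, with none of the 7 at 0. Il17a averaged 40.4 TPM in TH17 cultures with Srci1, 10.2 TPM in knockout cultures and 1338 TPM in DMSO TH17 cultures, so the first 2 groups are TH17 by culture condition and hold little of the lineage's signature cytokine. Foxp3, the factor that defines Treg cells, averaged 268.5 and 129.7 TPM in Treg cultures with Srci1 and DMSO, 203.6 TPM in TH17 cultures with Srci1, 204.6 TPM in the knockout and 11.7 TPM in DMSO TH17 cultures. The whole list of 6 Treg markers summed to 1580 to 1670 and 1200 to 1210 TPM in Treg cultures with Srci1 and DMSO, 1760 to 1950 TPM in TH17 cultures with Srci1, 845 to 1030 TPM in the knockout and 940 to 1270 TPM in DMSO TH17 cultures. In the knockout 3 of the 6 rose (Foxp3, Ikzf2 and Itgae) and 3 fell (Il2ra, Ctla4 and Gpr83). Over all tested genes, 30.9% were called higher and 18.9% lower in the knockout. With Srci1 in TH17 cultures 5 of the 6 markers rose and none fell, where 33.8% of all tested genes were called higher and 7.08% lower. After median-of-ratios scaling, which divides each library by its median ratio to the geometric mean of all libraries, 5 rose and 1 fell. Across genes, which are not independent, Pearson's r was 0.977 to 0.986 between replicate libraries and 0.902 to 0.97 between groups.

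All 4 cytokine genes had their highest levels in DMSO TH17 cultures and intermediate levels in TH17 cultures with Srci1. In that DMSO group Il21 averaged 205.3 TPM, Il24 82.7 TPM, Il22 5.68 TPM and Il10 5.11 TPM, so the genes fall into an abundant pair and a scarce pair.

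**Figure D1:**
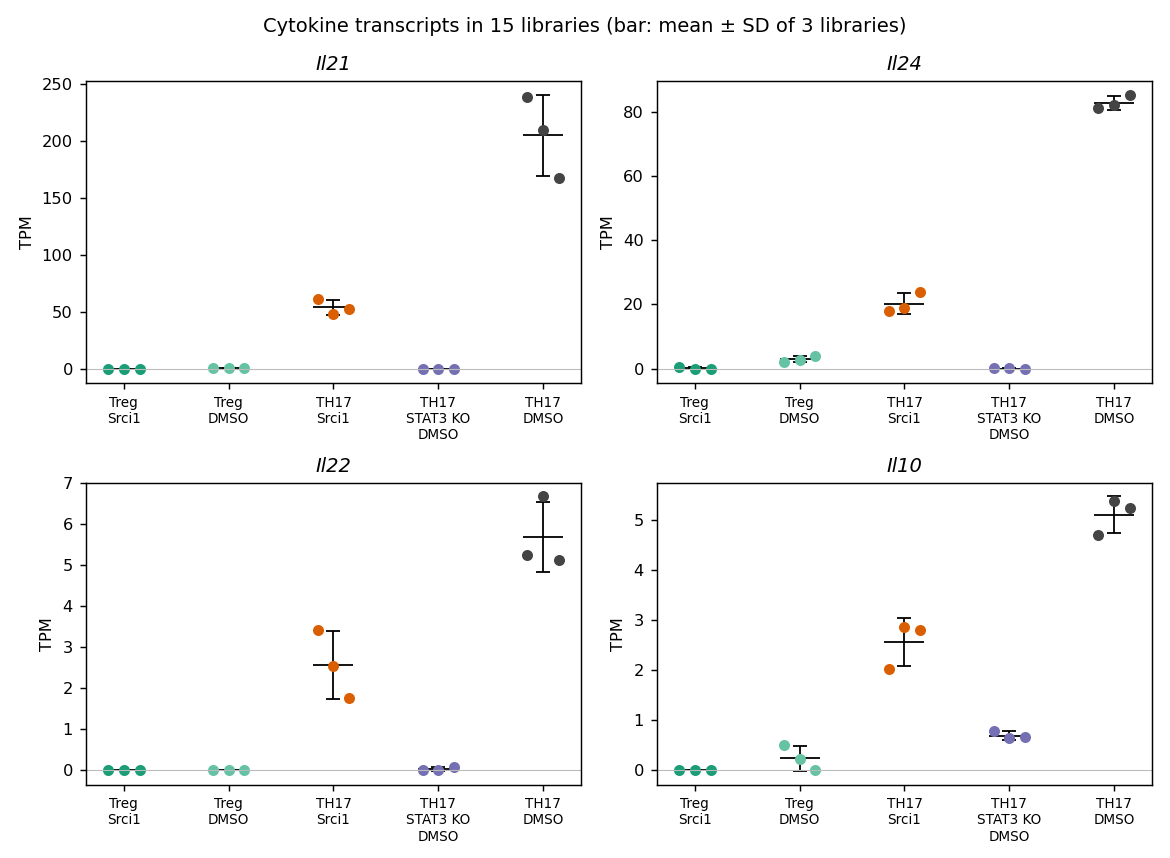
TPM of Il21, Il24, Il22 and Il10 in each of 15 libraries, as points, with the mean and SD of 3 libraries per group as bars, each gene on its own linear axis. In each panel the 3 DMSO TH17 libraries are the highest and the 3 Srci1 TH17 libraries come next. The STAT3 knockout and Treg libraries lie near 0 for Il21, Il24 and Il22. For Il10 they reach 0.79 TPM in the knockout and 0.5 TPM in DMSO Treg libraries, where the highest value is 5.39 TPM.

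Il21 (ENSMUSG00000027718.8) occupies positions 37222759 to 37232636 of chromosome 3 in GRCm38 (minus strand), with 3 annotated transcripts. The 250 bases just upstream of its start are shown because the gene had the highest level and the largest knockout difference of the 4. They are read 5′ to 3′ on the minus strand, chr3:37232637-37232886, from RefSeq's GRCm38.p6 promoter table, with each match to GGAAA on either strand, the core that NFAT factors of the T cell receptor pathway recognise, in capitals.
Il21 upstream: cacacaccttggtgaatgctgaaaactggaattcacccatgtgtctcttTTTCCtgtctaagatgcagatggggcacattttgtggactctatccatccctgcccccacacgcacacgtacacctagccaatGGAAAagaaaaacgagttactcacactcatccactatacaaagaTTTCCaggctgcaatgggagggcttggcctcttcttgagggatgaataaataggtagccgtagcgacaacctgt
The window holds 3 such matches, and 55.6% of 32851 promoter windows of 250 bases hold at least 1. The letters TTCNNNGAA, a pattern that STAT dimers bind and that can overlap GGAAA, are in 7.02% of those windows and not in this one, nor are TGANTCA (the AP-1 site, 6.75%), AGGTCA (a nuclear receptor half-site, 14%) or TATAAA (12.4%). A match is a description of the letters only.

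Il21 was read at 61.5, 48.7 and 53.2 TPM in TH17 cultures with Srci1, and it was listed at 0 in all 3 STAT3 knockout libraries, against 238.4, 209.6 and 167.8 TPM in DMSO TH17 cultures. The 3 Srci1 libraries lay together below every DMSO library, and 9.29% of all tested genes likewise were lower with Srci1 without overlap. Il21 fell 3.77-fold with Srci1, a log2 change of -1.89 ± 0.13 (SE; limma adjusted p = 2.68e-07). The median tested gene moved up by 0.213 in that comparison, and relative to it the change was -2.1. The call put Il21 among the 7.08% of tested genes that were lower with Srci1. In the knockout the log2 change was -7.67 (limma adjusted p = 4.43e-14), rank 2 from the lowest of 12800 genes, where 18.9% of genes were called lower. Relative to a median shift of 0.129 the knockout change was -7.8.

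In Treg cultures Il21 was near the lower end of the scale, at 0, 0 and 0.02 TPM with Srci1 and 0.86, 1.16 and 0.8 TPM with DMSO. The groups did not overlap and the difference was called (log2 change -0.94, limma adjusted p = 0.000182), beside 10% of tested genes called lower and 15.9% lower without overlap. DMSO Treg cultures were 218.4-fold below DMSO TH17 cultures (log2 change -6.72, limma adjusted p = 2.23e-13), where 12.5% of genes were called lower and 14.8% were lower without overlap. The order of levels, from high to low, was TH17 with DMSO, TH17 with Srci1, Treg with DMSO, Treg with Srci1 and knockout TH17. Each step was called except the last, between knockout TH17 and Srci1 Treg libraries (log2 difference -0.01, 95% interval -0.3 to 0.28, limma adjusted p = 0.963). TH17 cultures with Srci1 thus kept more Il21 transcript than the knockout (log2 difference 5.79, limma adjusted p = 8.31e-13) and more than DMSO Treg cultures (57.9-fold, limma adjusted p = 6.77e-12), comparisons in which 30.6% and 20.3% of genes were called higher. Between knockout TH17 and DMSO Treg cultures, where Il21 was lower in the knockout (log2 difference -0.95, limma adjusted p = 6.64e-05), 24.7% of genes were called lower.

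A gene model on the opposite strand inside Il21, Gm12534, did not follow it with Srci1. It was picked after its values were seen. It spans 37231333 to 37232469 on the plus strand of chromosome 3 in 2 exons, and all 469 of its exonic bases lie inside Il21 exons, with 35 of them in exons of protein-coding transcripts. Gm12534 was read at 32.6, 26.3 and 25.8 TPM in TH17 cultures with Srci1, and at 0, 0.48 and 0 TPM in the knockout, against 38.3, 27.9 and 28.2 TPM in DMSO TH17 cultures. The Srci1 and DMSO libraries overlapped, with a log2 change of -0.14 (95% interval -0.56 to 0.27, limma adjusted p = 0.584), while the knockout libraries lay apart below wild type (log2 change -4.82, limma adjusted p = 1.19e-10).

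The ratio of Il21 to Gm12534 was 1.88, 1.86 and 2.06 in the Srci1 TH17 libraries and 6.22, 7.51 and 5.95 in the DMSO TH17 libraries. These ratios did not overlap (exact two-sided permutation test, p = 0.1, the smallest that 3 against 3 allows). No source used here gives the strand setting of the read assignment, so reads of Il21 and of its antisense partner cannot be told apart, and some Gm12534 signal could belong to the retained-intron transcript of Il21.

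**Figure D2:**
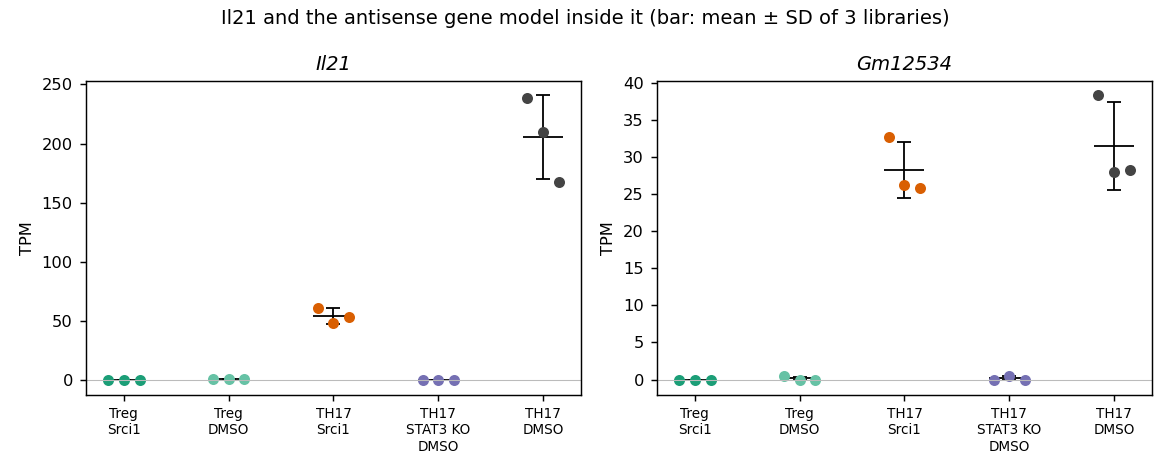
TPM of Il21 (left) and of the antisense gene model Gm12534 inside it (right) in each of 15 libraries, with the mean and SD of 3 libraries per group, on separate linear axes. Il21 averages 54.5 TPM in Srci1 TH17 libraries and 205.3 TPM in DMSO TH17 libraries, whereas Gm12534 averages 28.2 and 31.5 TPM in the same libraries.

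Il24 (ENSMUSG00000026420.16), an IL-10 family member, occupies 130882074 to 130887454 of chromosome 1 (minus strand). It was read at 17.9, 19.0 and 23.9 TPM in TH17 cultures with Srci1, and at 0.08, 0.08 and 0 TPM in the knockout, against 81.0, 82.0 and 85.3 TPM in DMSO TH17 cultures. The DMSO TH17 libraries lay within a narrow band, and no library of the other 2 groups reached it. Il24 fell 4.09-fold with Srci1 (log2 change -1.99 ± 0.2 SE, -2.2 relative to the median gene, limma adjusted p = 5.54e-06). In the knockout the log2 change was -6.31 (limma adjusted p = 8.98e-12), rank 10 from the lowest.

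Treg cultures held a low Il24 signal, of 0.64, 0 and 0 TPM with Srci1 and 2.17, 2.81 and 3.94 TPM with DMSO. Without overlap, the Srci1 libraries were lower (log2 change -1.73, limma adjusted p = 2.87e-05). DMSO Treg cultures were 27.8-fold below DMSO TH17 cultures (limma adjusted p = 7.36e-10). From high to low the order was the same as for Il21. The lowest neighbours, knockout TH17 and Srci1 Treg libraries, overlapped (log2 difference -0.16, 95% interval -0.59 to 0.27, limma adjusted p = 0.531). The step from DMSO Treg to Srci1 TH17 cultures was 6.81-fold upward (limma adjusted p = 3.44e-07).

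Il22 (ENSMUSG00000074695.3) lies on chromosome 10 from 118204942 to 118210047 on the plus strand. It has a near copy 79.6 kb away, Iltifb, on the minus strand from 118289629 to 118295038. Their coding sequences of 540 bases differ at 9 positions (98.3% identity), with an identical run of 215 bases, so the reads of Il22 may be shared with the copy. A stretch of 60 coding bases, numbers 158 to 217 from the start codon in the GENCODE M21 transcripts, is shown with the 3 letters that differ in capitals. It was picked because no other stretch of 60 coding bases holds more of the 9 differences.
Il22: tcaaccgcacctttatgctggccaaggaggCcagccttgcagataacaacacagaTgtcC
Iltifb: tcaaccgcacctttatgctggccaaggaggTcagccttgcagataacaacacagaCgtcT
Iltifb was listed at 0 in all 15 libraries. The level given for Il22 is therefore uncertain to the extent that the authors' read assignment could split the pair.

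Upstream of Il22, the RefSeq window of 250 bases holds 1 GGAAA and 1 TATAAA, in capitals in the stretches chr10:118204715-118204744 and chr10:118204782-118204811 of the plus strand in GRCm38.p6, shown for comparison with Il21.
Il22 NFAT core: agaagacaggactGGAAAttagataatgtc
Il22 TATA: tgtcccgatggcTATAAAagcagcaacttc
No match to TTCNNNGAA, TGANTCA or AGGTCA was found in that window.

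Il22 was read at 3.42, 2.53 and 1.76 TPM in TH17 cultures with Srci1, and at 0, 0 and 0.08 TPM in the knockout, against 5.25, 6.67 and 5.12 TPM in DMSO TH17 cultures. The Srci1 libraries spread widely for their level but stayed below every DMSO library. Il22 fell 2.21-fold with Srci1 (log2 change -0.92 ± 0.16 SE, -1.14 relative to the median gene, limma adjusted p = 0.000586), and in the knockout the log2 change was -2.7 (limma adjusted p = 7.85e-09). It was listed at 0 in all 6 Treg libraries, so Srci1 could not be compared with DMSO there. The knockout was not separated from DMSO Treg cultures (log2 difference 0.04, 95% interval -0.31 to 0.39, limma adjusted p = 0.878), whereas Srci1 TH17 cultures were above both (log2 difference 1.77 from the knockout and 1.81 from DMSO Treg, limma adjusted p = 6.88e-07 and 8.66e-07).

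Il10 (ENSMUSG00000016529.5) lies on chromosome 1 from 131019845 to 131024974 on the plus strand, 132.4 kb from Il24. It was read at 2.02, 2.87 and 2.81 TPM in TH17 cultures with Srci1, and at 0.79, 0.64 and 0.66 TPM in the knockout, against 4.7, 5.39 and 5.24 TPM in DMSO TH17 cultures. The 3 groups formed steps that did not overlap. Il10 fell 1.99-fold with Srci1 (log2 change -0.78 ± 0.16 SE, -1 relative to the median gene, limma adjusted p = 0.00148). With 0.1 in place of 1 added to TPM the change was -0.98 and the call ended (limma adjusted p = 0.124). In the knockout it fell 7.33-fold (log2 change -1.85, limma adjusted p = 2.86e-07).

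Of the 4 genes, Il10 alone was listed above 0 in every knockout library, at 13.6 ± 1.6% of the DMSO TH17 mean. The order of its levels differed from that of Il21 and Il24, since the knockout (0.79, 0.64 and 0.66 TPM) lay above DMSO Treg libraries (0.5, 0.22 and 0 TPM) and above Srci1 Treg libraries, listed at 0. The first of these steps was called (log2 difference 0.47, limma adjusted p = 0.0266, with 17.3% of genes called higher), but the call ended with the compared groups alone (limma adjusted p = 0.0646) and without knockout replicate 1 or 3 or DMSO Treg replicate 2 or 3 (limma adjusted p up to 0.128). Called as well was the distance to Srci1 Treg libraries (0.76, limma adjusted p = 0.00132, with 14% called higher). Srci1 and DMSO Treg libraries overlapped at 0 (log2 change -0.29, 95% interval -0.63 to 0.05, limma adjusted p = 0.188). All of these Il10 levels are below 1 TPM.

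**Figure D3:**
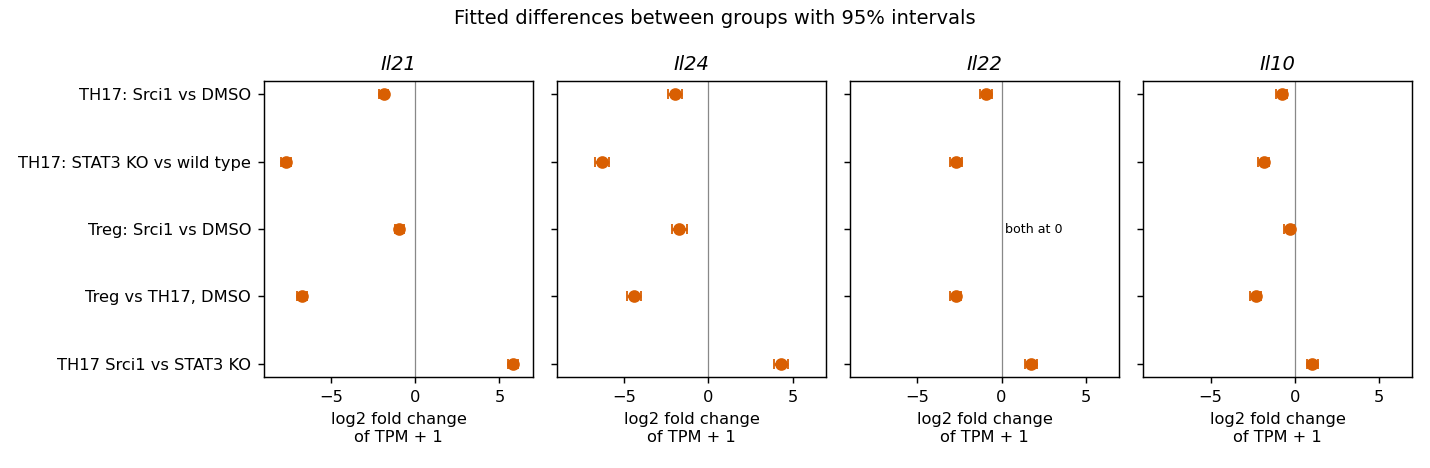
Fitted log2 changes of TPM + 1 for Il21, Il24, Il22 and Il10 in 5 comparisons, as points with 95% intervals, first-named group minus second. In TH17 cultures the changes with Srci1 run from -1.99 for Il24 to -0.78 for Il10, and in the knockout from -7.67 for Il21 to -1.85 for Il10.

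With Srci1, Il21 and Il24 kept about the same share of their DMSO TH17 mean, 26.5 ± 3.1% and 24.5 ± 3.9%, while Il22 kept 45.2 ± 15% and Il10 50.2 ± 9.3% (SD, n = 3). The ratio of Il24 to Il10 was 7.99 ± 1.2 in Srci1 and 16.2 ± 1 in DMSO TH17 libraries, without overlap. Likewise Il21 over Il10 (22.1 ± 7.3 with Srci1 and 40.5 ± 9.5 with DMSO) and Il21 over Il22 (22.5 ± 6.7 and 36.5 ± 7.7) did not overlap. Each of these 3 had the smallest p that the exact two-sided permutation test allows here, 0.1, so none could pass the threshold. The ratios Il21 over Il24 (2.75 ± 0.62 with Srci1 and 2.49 ± 0.49 with DMSO), Il24 over Il22 and Il22 over Il10 overlapped between the groups (exact permutation p = 0.6, 0.2 and 0.7), among 7 ratios tested.

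In TH17 cultures with Srci1, each gene was above the knockout: by 5.79 for Il21, 4.32 for Il24, 1.77 for Il22 and 1.06 for Il10 on the log2 scale, the last a 3.68-fold difference (limma adjusted p = 8.31e-13, 5.13e-10, 6.88e-07 and 7.03e-05). Without overlap, 34.8% of tested genes were higher with Srci1 in that comparison. The Srci1 and knockout comparisons share the DMSO TH17 libraries, so their changes are not independent of each other. In the knockout 18.9% of genes were lower without overlap.

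Whether Srci1 acted differently in TH17 and Treg cultures depended on the scale. For Il21 the TH17 change minus the Treg change was -0.95 ± 0.19 (SE; limma adjusted p = 0.00463, with 14.2% of all genes called in either direction), and it turned to 1.37 (limma adjusted p = 0.00498) when 0.1 in place of 1 was added to TPM. For Il24 the difference was -0.26 (limma adjusted p = 0.603) and for Il10 -0.49 (limma adjusted p = 0.162), and both also turned sign with 0.1, to 1.9 and 0.44. The Treg levels behind these differences were at most 3.94 TPM, and at 0.02 TPM or less for Il21 with Srci1. No direction is therefore given. Il22 was listed at 0 in every Treg library, so its difference of -0.92 (limma adjusted p = 0.0164) is the TH17 change alone.

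**Figure D4:**
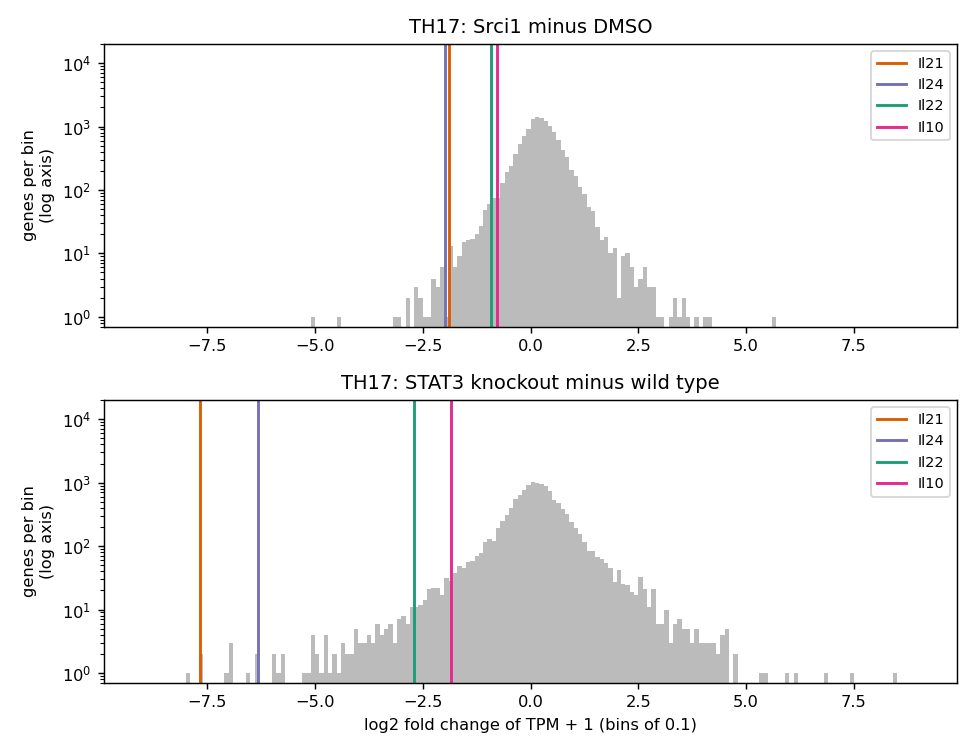
Distribution of log2 changes of TPM + 1 over 12800 tested genes (grey, genes per 0.1 bin on a log axis), Srci1 minus DMSO above and STAT3 knockout minus wild type below, with vertical lines for the 4 cytokine genes. In the upper panel Il24 and Il21 hold ranks 27 and 29 from the lowest and Il22 and Il10 ranks 238 and 345, and in the lower panel the ranks are 10, 2, 115 and 276.

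Other ligands of the IL-21 and IL-10 families were mostly at or near 0, and 3 of 9 were tested. Il9, which like IL-21 signals through the common gamma chain, rose with Srci1 to 52.3, 41.6 and 40.3 TPM in TH17 cultures, against 8.49, 4.23 and 7.09 TPM with DMSO (log2 change 2.62, limma adjusted p = 2.83e-05). Il2, the T cell growth factor that activates STAT5, fell to 14.1 TPM with Srci1, against 33.4 TPM with DMSO (limma adjusted p = 6.78e-05), and to 3.45 TPM in the knockout (limma adjusted p = 2.48e-09). Il4 was listed at 0 in all 3 knockout libraries, against 6, 3.3 and 3.29 TPM in wild type (limma adjusted p = 1.75e-05). Thus 1 ligand rose and 1 fell with Srci1, and none rose and 2 fell in the knockout (3 fell after median-of-ratios scaling). Over all genes, 33.8% were called higher with Srci1 and 30.9% in the knockout, beside the shares called lower given above.

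Of 8 receptor chains, 5 were tested. With Srci1 in TH17 cultures 3 rose and none fell (3 and 1 after median-of-ratios scaling), with a median log2 change of 0.51 beside 0.21 over all genes. Over all tested genes, 33.8% were called higher and 7.08% lower before scaling. The 3 that rose were Il10rb (41.7 TPM with Srci1 and 22.8 TPM with DMSO), Il10ra (22.5 and 12.6 TPM) and Il21r (158.5 and 111.5 TPM), with limma adjusted p of 6.23e-06, 3.05e-05 and 0.000115. In the knockout 1 rose and 3 fell, beside 30.9% of all genes called higher and 18.9% lower. Il21r fell to 56.8 TPM, against 111.5 TPM in wild type, and Il10ra to 7.33 TPM, against 12.6 TPM. The common gamma chain Il2rg fell to 491.1 TPM, against 645.0 TPM. Il21r and Il10ra therefore moved in opposite directions in the 2 comparisons, while Il10rb rose in both.

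Among 8 JAK and STAT transducers, 3 rose and none fell with Srci1 in TH17 cultures, but after median-of-ratios scaling 1 rose and 3 fell. Over all tested genes, 33.8% were called higher and 7.08% lower before scaling. The median log2 change was 0.21 both in the list and over all genes. Jak1, a kinase that all of these receptors use, was at 121.1 TPM with Srci1 and 75.2 TPM with DMSO (limma adjusted p = 0.000461). Stat3 was at 157.2 and 120.8 TPM (limma adjusted p = 0.00731, and 0.161 after scaling). In the knockout 2 rose and 4 fell, beside 30.9% of all genes called higher and 18.9% lower. Stat3, the gene deleted there, was 1 of the 4 that fell. Jak3, the partner of the common gamma chain, also fell, to 50.3 TPM, against 140.5 TPM in wild type (limma adjusted p = 7.48e-10). In Treg cultures 1 rose and 5 fell with Srci1, where 17.1% of all genes were called higher and 10% lower. Stat3 was among those that fell there, to 76.5 TPM, against 134.4 TPM with DMSO (limma adjusted p = 5.53e-05).

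Of 16 transcription factors known to act at these cytokine genes, 6 rose and 5 fell with Srci1 in TH17 cultures (3 and 6 after scaling). Over all tested genes, 33.8% were called higher and 7.08% lower before scaling. Ahr, a ligand-activated factor that TH17 cells need to make IL-22, rose to 14.9 TPM, against 5.77 TPM with DMSO (limma adjusted p = 5.23e-05), and Gata3, the TH2 factor, to 11.9 TPM, against 4.36 TPM. Nfil3, a basic leucine zipper factor, fell to 35.6 TPM, against 64.5 TPM, and Bhlhe40, a repressor of Il10, to 165.0 TPM, against 258.2 TPM. In the knockout 3 rose and 9 fell, beside 30.9% of all genes called higher and 18.9% lower. The median log2 change of these factors was -0.8 there, beside 0.13 over all genes. Nfil3 fell to 11.3 TPM, against 64.5 TPM in wild type (limma adjusted p = 7.16e-12), and Bhlhe40 to 57.9 TPM, against 258.2 TPM, while Tbx21, the TH1 factor, rose to 21.9 TPM, against 0.603 TPM (limma adjusted p = 1.04e-11).

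In DMSO, 4 of these factors were higher and 11 lower in Treg than in TH17 cultures, with 32.3% of all genes called higher and 12.5% lower. Maf, which drives Il10 and Il21 in helper T cells, was at 3.61 TPM in Treg and 79.5 TPM in TH17 cultures (limma adjusted p = 1.14e-12). With Srci1 in TH17 cultures, where Il10 and Il21 fell, Maf was at 87.4 TPM and was not called (limma adjusted p = 0.273). In the knockout Maf fell to 22.3 TPM (limma adjusted p = 1.98e-09). Srci1 in Treg cultures left 3 of these factors higher and 8 lower, where 17.1% of all genes were called higher and 10% lower. Nfil3 fell there to 12.4 TPM, against 40.3 TPM with DMSO, and Bhlhe40 to 74.7 TPM, against 190.9 TPM (limma adjusted p = 4.76e-09 and 1.54e-08).

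**Figure D5:**
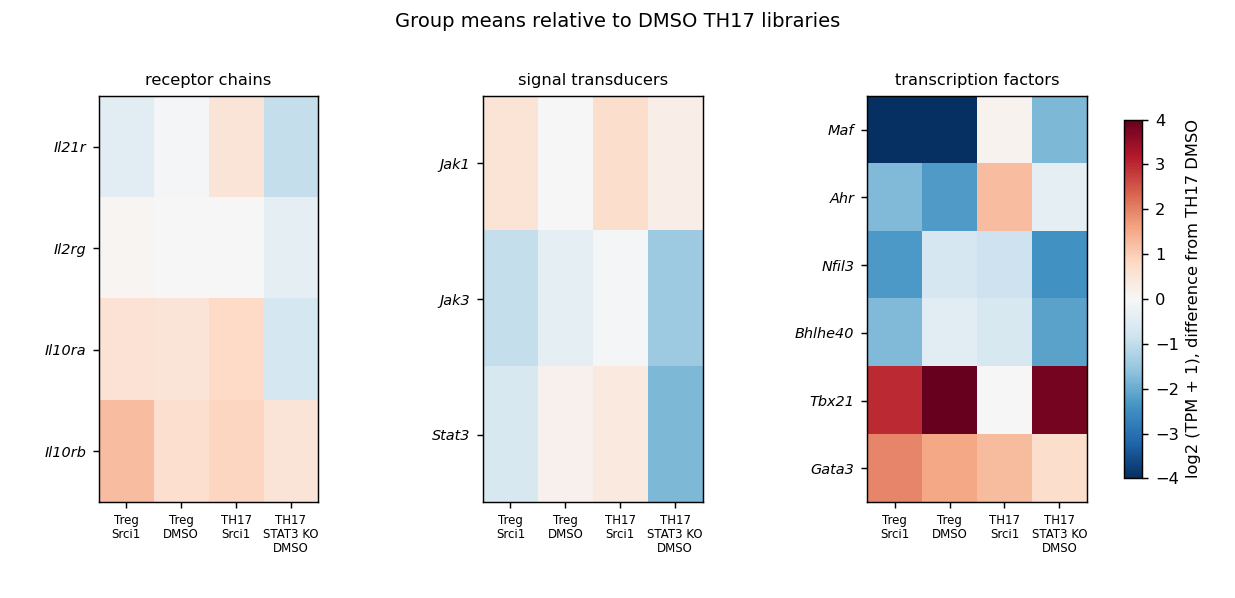
Group means of log2(TPM + 1), as the difference from DMSO TH17 libraries (red higher, blue lower), for the receptor chains, signal transducers and transcription factors named in the text, in the other 4 groups. Nfil3 and Bhlhe40 are at their lowest in knockout TH17 libraries, and Tbx21 is high in every group except TH17 with Srci1 or DMSO.

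The AHR target Cyp1a1, often read as a report of AHR activity, rose to 3.83 TPM with Srci1 and to 16.5 TPM in the knockout, against 1.28 TPM in DMSO TH17 cultures (limma adjusted p = 1.05e-05 and 9.6e-11). Of 4 tested AHR targets, 2 rose and none fell with Srci1, where 33.8% of all tested genes were called higher and 7.08% lower. In the knockout 3 rose and 1 fell, beside 30.9% of all genes called higher and 18.9% lower. Il22 fell in both comparisons, and its link to these targets was not tested. After scaling the target counts were 2 higher and 1 lower in each. Of the 3 that rose in the knockout, Ahrr (limma adjusted p = 0.0495) kept its call in 3 of 20 alternatives. It was at 1.96, 13.44 and 2.06 TPM there, and without the library at 13.44 TPM, knockout replicate 2, its log2 change was 0.37 beside 1.13 with it. Nqo1 kept its call in 16 of 20.

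Other genes known to be induced by STAT3 were higher with Srci1 than in the knockout, 11 of 12 by the direct comparison and none lower, where 30.6% of all genes were called higher. With Srci1 in TH17 cultures 8 of 12 rose and 2 fell (5 and 3 after scaling), where 33.8% of all genes were called higher, with a median log2 change of 0.26 beside 0.21 over all genes. Socs3, the feedback inhibitor of STAT3 signalling, rose to 154.8 TPM, against 82.5 TPM with DMSO (limma adjusted p = 4.67e-07), Pim1, a survival kinase, to 548.7 TPM, against 392.2 TPM (log2 change 0.49, and 0.21 after scaling), and Il6st, the shared IL-6 receptor chain, to 23.9 TPM, against 5.95 TPM. In the knockout 1 rose and 11 fell, beside 18.9% of all genes called lower, with a median log2 change of -1.85 beside 0.13. The 1 that rose was again Il6st, at 19.4 TPM in the knockout and 5.95 TPM in wild type (log2 change 1.6, limma adjusted p = 1.49e-05). Socs3 was at 10.2 TPM, Pim1 at 65.3 TPM and Bcl3, an NF-κB cofactor, at 25.6 TPM, against 82.5, 392.2 and 135.4 TPM in wild type.

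Markers of other cells were read in the same libraries. The 7 B cell markers summed to between 14.2 and 15.4 TPM in knockout libraries and between 0.87 and 1.04 TPM in DMSO TH17 libraries, with Cd79b (8.1 TPM) and Cd79a (3.15 TPM) the highest in the knockout, and 3 of 3 tested were called higher. The 8 myeloid markers summed to 2.72 to 3.9 TPM and 0.32 to 1.29 TPM, with Tyrobp listed at 0 in both groups. The 9 markers of CD8 T, NK and innate lymphoid cells, the last a known source of IL-22, summed to 122 to 157 TPM with Srci1, 94 to 122 TPM in the knockout and 65.6 to 72.7 TPM in DMSO TH17 libraries, with Ncr1 listed at 0 in all 9 libraries. Of 7 tested, 4 were called higher and 1 lower with Srci1, and 5 higher and 1 lower in the knockout. Over all tested genes, 33.8% were called higher and 7.08% lower with Srci1, and 30.9% and 18.9% in the knockout. Klrd1, an NK cell receptor chain, was at 88.9 TPM with Srci1, 1.27 TPM in the knockout and 42.8 TPM in DMSO TH17 cultures, so it fell in the knockout (log2 change -4.29, limma adjusted p = 7.8e-10). Il18r1, the IL-18 receptor chain, was at 33.2, 72.5 and 13.6 TPM in the same groups. The part of these cells in the cytokine values was not tested.

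The genes beside the cytokines were also read, up to 3 on each side, and 12 of the 20 that are not themselves among the 4 were tested. In the knockout 3 of the 12 were called higher, 7 lower and 2 neither, in a comparison where 49.7% of tested genes were called in either direction. With Srci1 in TH17 cultures 6 were called higher, 1 lower and 5 neither, where 33.8% of tested genes were called higher and 7.08% lower. Il24 and Il10 share a cluster of IL-10 family genes, and Il20 and Il19, which lie between them, were too low to test. In the knockout Fcmr, 1.3 kb from Il24, fell to 0.533 TPM, against 14.0 TPM in wild type (limma adjusted p = 5.81e-06), and Mapkapk2, 28.7 kb from Il10, to 65.1 TPM, against 227.2 TPM (limma adjusted p = 1.13e-11). Beside Il21, Cetn4 at 75.1 kb fell to 3.64 TPM, against 19.4 TPM (limma adjusted p = 1.73e-07), and Il2 at 96.8 kb fell as given above. Beside Il22, Mdm1 at 35.9 kb rose to 12.5 TPM, against 3.23 TPM (limma adjusted p = 1.62e-05). These 5 neighbours were named after their values were seen. With Srci1 in TH17 cultures Mdm1 and Mapkapk2 were called higher and Il2 lower, and Fcmr and Cetn4 were not called.

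Among 9284 genes with a group mean of at least 5 TPM, those most like each cytokine gene were ranked by the root mean square difference of their 5 group means on the log2 scale, each centred on its own average. Closest to Il21 were the leukotriene receptor gene Ltb4r1 (0.27), the protease inhibitor gene Timp1 (0.59), Ly6g (0.63), Il24 (0.93) and Procr (0.99). Closest to Il24 were the leukotriene receptor gene Cysltr1 (0.42), Procr (0.51), which encodes the protein C receptor, Tnfrsf8 (0.63), Gcnt2 (0.68) and Ltb4r1 (0.71). Ltb4r1 averaged 48.8 TPM in TH17 cultures with Srci1, 0.103 TPM in the knockout and 149 TPM in DMSO TH17 cultures.

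Il22 was nearest to Gngt2 (0.14) and Il23r (0.16), the IL-23 receptor gene, which averaged 3.87 TPM with Srci1, 0.06 TPM in the knockout and 7.29 TPM in DMSO TH17 cultures, followed by Clec2l, Tgfbi and Gmfg (0.17 to 0.19). Il10 was nearest to Foxf2 (0.06), Efemp2 (0.1), Tpbg (0.12), the chemokine receptor gene Cxcr4 (0.2) and Ggt7 (0.22). Between the 4 cytokine genes the smallest difference was that of Il22 and Il10 (0.3), then Il21 and Il24 (0.93), and the largest that of Il21 and Il10 (2.3). The measure rests on 5 group means and compares changes, not levels: Gngt2, nearest to Il22, averaged 69.7 TPM in TH17 cultures with Srci1, 18 TPM in the knockout and 118 TPM in DMSO TH17 cultures. The added 1 TPM lessens the differences of low genes such as Il22 and Il10.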

How the data were processed

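Poly(A) RNA-seq libraries of cultured mouse CD4 T cells were compared, 3 in each of 5 groups taken from the labels. The table that the authors deposited gives TPM in 15 columns, 1 per library, for 55421 gene IDs. Columns were matched to libraries by name, with D read as DMSO and S as Srci1. The submitters' processing notes name RSEM 1.3.3, STAR 2.7.9a and GRCm38, without their roles. Annotation release, strand setting and filters: not given in the sources used here. TPM carries no depth, so no counting interval or floor was computed.

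Symbols were matched for 55154 IDs. limma 3.58.1 in R 4.3.3, with a variance trend, was fitted to log2(TPM + 1) of the 12800 genes that reached 1 TPM in 3 or more libraries. All 15 libraries entered, as 5 group means, leaving 10 residual degrees of freedom, and the fit was checked on simulated data. Calls used a Benjamini-Hochberg adjusted p under 0.05. Calls and changes were recomputed without a low-value filter, with a filter of 5 TPM, with a pseudocount of 0.1, after median-of-ratios scaling, with the compared groups alone, with the replicate number as a block, and without each library. For the 3 comparisons of TH17 with Treg groups that differ in treatment or genotype, these alternatives were added after seeing the data. Ratios and likeness were not recomputed. The 4 genes and the gene lists were chosen with earlier results of these data known. The text names the 4 genes, up to 4 called members of each list with the smallest adjusted p, and the 5 genes most like each cytokine gene, apart from genes said to be chosen later, and a few that this rule picked are not reported here. Coordinates are 1-based on GRCm38 from GENCODE M21. Promoter sequences of Il21 and Il22 came from RefSeq's table, in which 2 of the 4 genes were matched.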

Additional observations from a re-analysis of the deposited data

Results flagged for a closer look

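The effect of Srci1 on Il21 differed between culture types in the test of the difference itself: the TH17 change minus the Treg change was -0.95 on the log2(TPM + 1) scale (limma adjusted p = 0.00463). Its sign turned to 1.37 with 0.1 added in place of 1. Il21 was at 61.5, 48.7 and 53.2 TPM with Srci1 and 238.4, 209.6 and 167.8 TPM with DMSO in TH17 cultures, and at 0, 0 and 0.02 TPM with Srci1 and 0.86, 1.16 and 0.8 TPM with DMSO in Treg cultures.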

How the results depend on the processing

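Of 33 results on the 4 cytokine genes, 26 kept their direction and their side of the threshold under every alternative that gave a value. Il22 comparisons that use the Srci1 Treg libraries, where it was listed at 0, are not among the 33. Of the other 7, 5 changed with a pseudocount of 0.1: the Srci1 change of Il10 was -0.98 in TH17 cultures, no longer called (limma adjusted p = 0.124), and -1.42 in Treg cultures, now called (limma adjusted p = 0.0457), and the differences between the TH17 and Treg effects of Srci1 turned to 1.37 for Il21, 1.9 for Il24 and 0.44 for Il10. Low values weigh more at the smaller pseudocount. Leaving out single libraries moved the Srci1 change in TH17 cultures between -2.02 and -1.77 for Il21, -2.11 and -1.91 for Il24, -1.09 and -0.75 for Il22, and -0.85 and -0.67 for Il10, with no call lost. The other 2 are comparisons whose alternatives were added after seeing the data. The Il10 difference between knockout TH17 and DMSO Treg cultures stayed 0.47 with the compared groups alone but was no longer called (limma adjusted p = 0.0646), and it ran between 0.33 and 0.62 without single libraries, with the call lost for 4 of them. The uncalled Il24 difference between knockout TH17 and Srci1 Treg cultures ran between -0.28 and 0.07 without single libraries. A filter of 5 TPM removed Il10, which then had no value.

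Median-of-ratios scaling kept the number of calls within 1.5 times but moved their split: in TH17 cultures with Srci1, 4324 higher and 906 lower calls became 2115 and 2114, and in the knockout 3952 and 2414 became 3229 and 3289. With the replicate number as a block, Srci1 in TH17 cultures gave 5063 calls beside 5230 without it, and no call on the 4 genes changed. Deviations of same-numbered libraries from their group means correlated at -0.171 to 0.128 in 30 pairs of libraries, 2 of them over 0.1. These weak correlations show no clear pairing by number, but they cannot settle whether same-numbered libraries share an animal or a culture. Sequencing depth is unknown, which limits what can be said of levels under 1 TPM.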
